A study of Mus musculus with 743 samples.

Results

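The genes of cholesterol synthesis, its regulation and sterol uptake and transport were examined in single Schwann cells (SCs), the glia of the peripheral nerve. The list held 30 genes of the 25700 in the table. The genes were listed by name for their place in the pathway, with earlier results of these data known. They were 20 enzymes that carry acetyl-CoA to cholesterol, 5 regulators and 5 genes of uptake and transport. All 30 were present in the table and all 30 passed the filter on low counts, which left 13292 genes to test. SCs were dissociated from mouse sciatic nerve at postnatal day 1 (P1) and sorted for a yellow fluorescent protein, 1 cell per well, into 2 plates. Every well came from mice of 1 genotype on a C57BL/6J background, P0Cre -/+ : ReYFP Tg/+ : βAct-DsRed Tg/+. In these mice Cre switches on the yellow protein, so cells of other lineages that had ever expressed Cre would also have been sorted. Each plate held a pool of 1 male and 1 female mouse, which makes plates the replicates here (n = 2), and p-values measure the spread between these 2 pools.

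Cholesterol is a main lipid of myelin, the multilayered membrane that SCs wrap around axons, and SCs make much of it themselves. When sterols in the endoplasmic reticulum run low, Scap escorts the SREBP transcription factors (encoded by Srebf1 and Srebf2) to the Golgi, where they are cut and released to switch on the genes of synthesis and uptake. The Insig proteins hold Scap back when sterols are plentiful. At birth many SCs have just taken up a 1-to-1 relation with a large axon and are starting to myelinate, while others still divide.

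Of 743 wells, 621 cells with at least 1500 detected genes were used, 287 on plate 1 and 334 on plate 2. The cells were put into 3 classes by genes that are not on the list. Cells with Mki67 and Top2a together at 50 CPM or more (CPM, a gene's reads scaled to a library total of 1e6) were called cycling (53 and 57 cells on plates 1 and 2), other cells with Ncmap, a myelin protein gene, at 50 CPM or more were called Ncmap-positive (59 and 60 cells), and the rest were called other cells (175 and 217 cells). The classes are ranges of a measured level and not cell types. Only 9 cells lay between 25 and 100 CPM of the cycling genes, 9 lay there for Ncmap, and 1 cycling cell was also over the Ncmap threshold. The summed reads of a class on a plate ranged from 45073128 to 172878954. Median detected genes per cell were 3690 and 3550 in Ncmap-positive cells, 3425 and 3477 in cycling cells and 2775 and 2819 in other cells. Other cells did not have fewer reads to match. Median reads per cell were 905794 and 831680 in Ncmap-positive, 901677 and 701288 in cycling and 950150 and 795029 in other cells. Detection is also given after each cell was thinned to 50000 reads. Thinning evens out reads and does not remove the difference in detected genes, so shares over all genes are needed beside it.

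The marker lists moved with the classes. The 12 promyelinating genes, which include Ncmap itself, summed to 27564 and 27267 CPM in Ncmap-positive cells against 5220 to 7917 CPM in the other 2 classes. All 5 SC markers had reads in every class and summed to 4500 and 3846 CPM in Ncmap-positive cells, 1840 and 1436 CPM in cycling cells and 2537 and 2120 CPM in other cells. The 8 immature SC markers summed to 338 and 425, 1113 and 1054, and 950 and 791 CPM in the same order. Genes of the response to dissociation (8 immediate-early and heat shock genes) summed to 2205 and 2418 CPM in Ncmap-positive cells, 4726 and 7160 CPM in cycling cells and 5842 and 6380 CPM in other cells. The 4 fibroblast-like markers (Pdgfra, Dcn, Lum and Col3a1) summed to 2431 and 2678, 5346 and 5016, and 5338 and 4787 CPM, again in that order. Pdgfra had 0 reads in all 3 classes, so these sums came from the other genes of the list. In cycling and in other cells they exceeded the sums of the 5 SC markers. Markers of immune cells and macrophages ranged from 2.77 to 20.7 CPM with 4 of the 6 at 0 in each class, endothelial markers reached at most 2.91 CPM, mural markers ranged from 24.8 to 56.8 CPM, perineurial markers from 6.75 to 25 CPM, and adipocyte markers reached at most 0.081 CPM. Their part in the results was not tested, except that each count was repeated in cells low in the dissociation genes.

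Over all cells, levels compared per kilobase of exon spanned from 1544 ± 255 RPKM for Apoe to 0.827 ± 0.162 RPKM for Lss (mean ± SD, n = 2 plates). RPKM is CPM divided by the exon length in kilobases. Apoe encodes a protein of the lipoprotein particles that carry cholesterol between cells, and the Lss enzyme closes squalene epoxide into lanosterol. Npc2, which hands cholesterol out of lysosomes, followed Apoe at 83.5 ± 3.36 RPKM. The highest enzymes were Pmvk (71.6 ± 3.84 RPKM), which phosphorylates mevalonate phosphate, Fdps (54.7 ± 8.44 RPKM), which makes farnesyl diphosphate, and Ebp (48.3 ± 19.7 RPKM), a sterol isomerase. Fdps and Ebp differed by less than the larger SD of the pair, as did 20 of the 29 pairs of neighbours in this order. Most enzymes were found in a minority of cells. Apoe had a read in 95.8% of cells, Npc2 in 80.5%, Tm7sf2 in 76.2% and Insig1 in 53.3%, whereas the other 26 genes ranged from 7.57% for Lss to 45.1% for Fdps. Tm7sf2, a sterol reductase, combined its wide detection with a low level, a median of 11.9 CPM in the cells with a read. The plates differed most for Mvk (log2 ratio of plate 2 to plate 1 of -1.38) and Idi1 (-1.12), a kinase and an isomerase of the mevalonate pathway.

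Ncmap-positive cells had more of the synthesis enzymes than other cells, and less Apoe. The 20 enzymes summed to 1876 and 1690 CPM on plates 1 and 2 in Ncmap-positive cells and to 911 and 1015 CPM in other cells. In 13 of the 20 enzymes, and in 15 of the 30 genes, both plates of the Ncmap-positive class lay above both plates of other cells, against a background of 16.4% of all genes tested. No member passed the test as higher by edgeR at an adjusted p under 0.05 (background 0.497%), and Apoe alone passed it as lower (background 1.29%), which makes 1 of 30 in either direction against 1.79% of all genes. At an unadjusted p under 0.05 there were 7 members in either direction, beside 11.2% of all genes. DESeq2 called 7 members in either direction, 6 of them higher (background 7.61% in either direction), and limma on means over cells called 12, 11 of them higher (background 9.04%). The median log2 fold change was 0.78 over the 30 genes and 1.08 over the 20 enzymes, beside -0.07 over all genes.

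**Figure D1:**
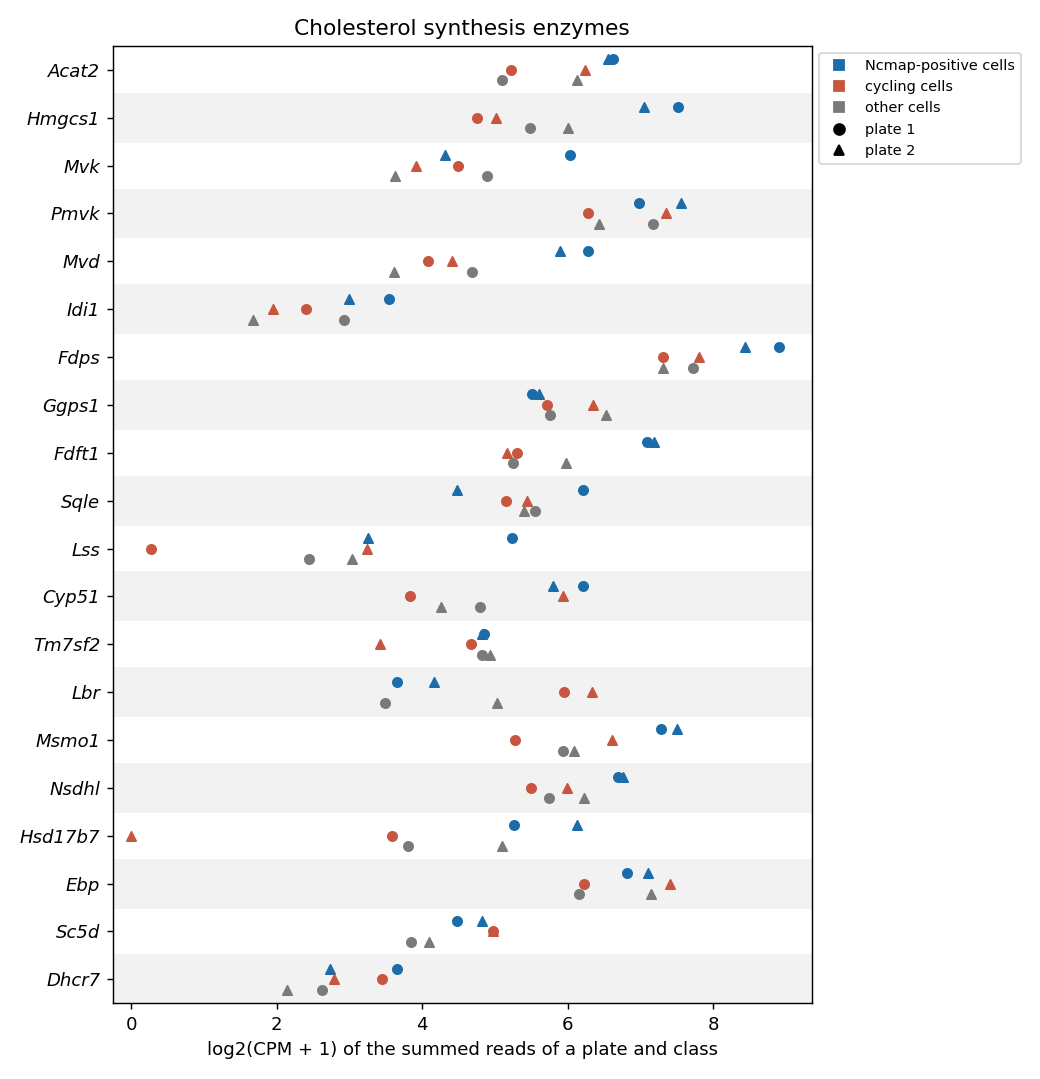
Levels of the 20 synthesis enzymes as log2(CPM + 1) of the reads summed over the cells of a class on a plate (horizontal axis), in pathway order from top to bottom; circles are plate 1, triangles plate 2, colours the 3 classes. For Acat2, Hmgcs1, Mvd, Idi1, Fdps, Fdft1, Msmo1, Nsdhl and Hsd17b7 both Ncmap-positive points lie to the right of all 4 other points. The same holds narrowly for Lss (8.58 against 8.45 CPM in cycling cells of plate 2). For Lbr and Sc5d both cycling points lie to the right of all others.

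Among the 8 genes of the mevalonate and prenyl steps the median log2 fold change was 1.11. For 5 of the 8 both plates of Ncmap-positive cells lay above both plates of other cells (background 16.4% of all genes). Hmgcs1, which makes HMG-CoA, was at 182 and 132 CPM in Ncmap-positive cells and 43.9 and 63.4 CPM in other cells. Its log2 fold change was 1.63 (SE 0.375, adjusted p = 0.0886), and the groups did not overlap. Mvd, which decarboxylates mevalonate diphosphate, was at 77.0 and 58.4 CPM against 24.8 and 11.2 CPM, again without overlap, with a log2 fold change of 1.98 (SE 0.592, adjusted p = 0.202). Mvd had a read in 27.1% and 29.3% of thinned Ncmap-positive cells and in 6.29% and 6.98% of thinned other cells. Fdps was at 479 and 347 CPM against 211 and 158 CPM, but its count is uncertain. A gene model on the same strand, Gm43738, shares 26.7% of its exon length, and their reads were equal in 184 of the 289 cells with a read of either. Acat2, which makes acetoacetyl-CoA, was at 97.3 and 92.9 CPM against 33.1 and 68.9 CPM, and Idi1, the isopentenyl diphosphate isomerase, at 10.7 and 6.95 CPM against 6.58 and 2.20 CPM. Mvk (mevalonate kinase, 64.5 and 18.9 against 28.6 and 11.3 CPM) and Pmvk (125 and 187 against 143 and 85.6 CPM) overlapped. Ggps1, which diverts farnesyl diphosphate to geranylgeranyl diphosphate for protein prenylation, was the exception in the other direction, at 44.7 and 47.7 CPM against 53.3 and 91.6 CPM.

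For 2 of the 3 genes of the squalene and lanosterol steps both Ncmap-positive plates lay above both plates of other cells (background 16.4%). Fdft1, the squalene synthase that commits farnesyl diphosphate to sterols, was at 135 and 145 CPM in Ncmap-positive cells and 37.0 and 61.7 CPM in other cells. Its log2 fold change was 1.59 (SE 0.385, adjusted p = 0.105) with no overlap. Lss had the largest fold change of the list, 2.04 on the log2 scale, and also a large error (SE 1.51, adjusted p = 0.724). It was at 36.7 and 8.58 CPM against 4.45 and 7.21 CPM, so nearly all of its difference lay on plate 1. Sqle, the squalene epoxidase, overlapped at 73.3 and 21.3 CPM against 45.7 and 41.3 CPM.

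Of the 9 later sterol conversions, 6 did not overlap and were higher in Ncmap-positive cells (background 16.4%). Msmo1, which removes methyl groups at carbon 4, was at 155 and 180 CPM against 60.2 and 67.2 CPM, and Cyp51, the lanosterol demethylase, at 72.9 and 54.4 CPM against 26.8 and 18.2 CPM. Nsdhl, which acts with Msmo1, was at 102 and 107 CPM against 52.5 and 73.8 CPM. Hsd17b7, the ketoreductase of the same step, was at 37.4 and 68.8 CPM against 13 and 33.2 CPM, carried by few cells, since 3 cells held 58.6% of its reads in the Ncmap-positive class. Sc5d and Dhcr7, which form and reduce the double bonds of the last steps, lay at 21.3 and 27.4 against 13.4 and 16.1 CPM and at 11.6 and 5.67 against 5.19 and 3.41 CPM. None of the 9 passed the test. Tm7sf2 (27.8 and 27.3 against 27.3 and 29.6 CPM), Ebp (112 and 136 against 70.3 and 140 CPM) and Lbr (11.6 and 16.9 against 10.2 and 31.7 CPM) overlapped.

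The regulators lay in both directions, with a median log2 fold change of 0.12 over the 5. Insig1, itself a target of the SREBP factors, was at 53.9 and 65.5 CPM in Ncmap-positive cells and 18.8 and 25 CPM in other cells, without overlap (log2 fold change 1.53, adjusted p = 0.303). Its relative Insig2 lay the other way, at 22.2 and 19.1 CPM against 45.2 and 39.4 CPM, as did Scap, at 21.7 and 28.3 CPM against 61.5 and 40.0 CPM. Neither of them passed the test, at adjusted p = 0.699 and 0.677. Both transcription factor genes overlapped, Srebf2 at 22.6 and 34.8 against 29.4 and 26.3 CPM and Srebf1 at 69.5 and 26.9 against 16 and 45.1 CPM.

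Among the genes of uptake and transport, Apoe fell in Ncmap-positive cells. It was at 1440 and 1713 CPM on plates 1 and 2 there and at 3271 and 4235 CPM in other cells, with no overlap and a log2 fold change of -1.17 (SE 0.169, adjusted p = 0.0115). The adjusted p ranged from 1.68e-07 to 0.0623 over the alternatives, and the call was lost in cells at or below the median of the dissociation genes, where the log2 fold change was -1.03 (SE 0.172, adjusted p = 0.0623). Ggps1, Insig2, Scap and Apoe were the 4 members with both plates of Ncmap-positive cells below both plates of other cells, against a background of 28.1%. With Apoe counted, the 30 genes together came to 4115 and 4237 CPM in Ncmap-positive cells and 4938 and 6023 CPM in other cells. Npc1, the lysosomal membrane partner of Npc2, was at 105 and 117 CPM against 87.2 and 68.2 CPM without overlap. Npc2 differed by little (476 and 475 against 470 and 480 CPM). Abca1, which exports cholesterol to lipoproteins, and Stard4, which shuttles sterol between membranes, overlapped between the classes at 13.2 and 45.6 against 23.9 and 31.0 CPM and at 15.6 and 22.1 against 5.54 and 18.5 CPM.

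**Figure D2:**
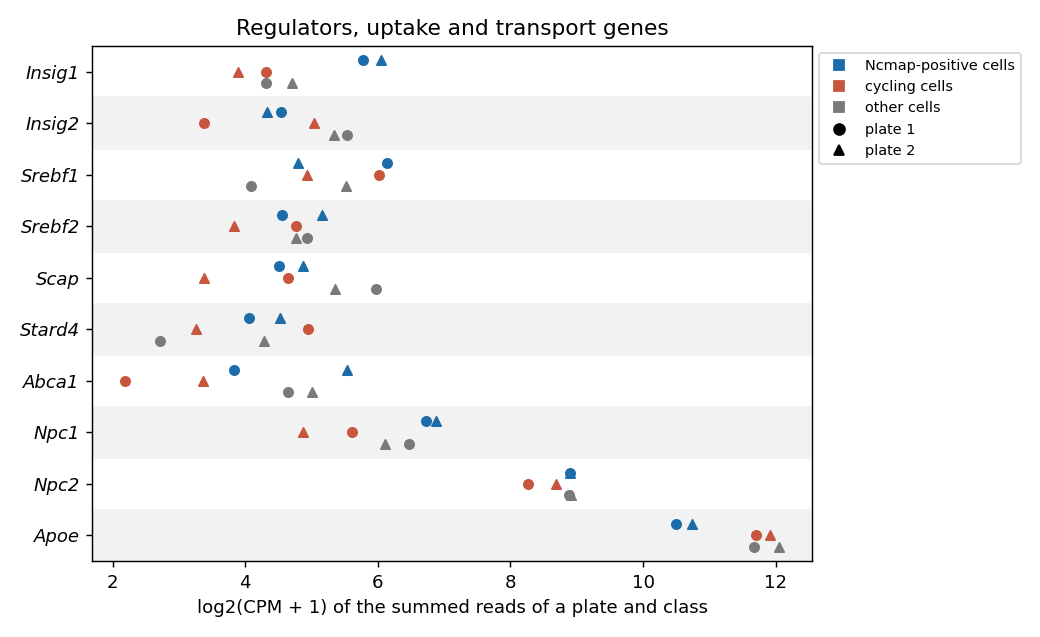
Levels of the 5 regulators (top) and 5 uptake and transport genes (bottom) as log2(CPM + 1) of the reads summed over a class on a plate; circles are plate 1, triangles plate 2, colours the 3 classes. Apoe is lower in Ncmap-positive cells (1440 and 1713 CPM) than in both other classes (3271 to 4235 CPM), and Insig1 is higher (53.9 and 65.5 CPM against 13.9 to 25 CPM).

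The DNA just before the start sites of 4 genes with high fold changes is shown because synthesis genes share regulatory motifs there. The 4 were picked and are not the highest 4 with a matched window. Cyp51 (log2 fold change 1.58 for Ncmap-positive against other cells) has a window and lies above the regulator Insig1 (1.53). The sequences are the 250 bases upstream of the RefSeq start (GRCm38.p6), and capitals mark a CCAAT box (CCAAT, or ATTGG on the opposite strand), an E-box (CACGTG) or the core of a sterol regulatory element (TCACNCCAC or its reverse complement), the motif that SREBP factors bind. They lie at chr13:119690101-119690350 (plus strand), chr10:76531355-76531604 (plus strand), chr8:122443423-122443672 (minus strand) and chr5:28071162-28071411 (plus strand), in the order printed.
Hmgcs1: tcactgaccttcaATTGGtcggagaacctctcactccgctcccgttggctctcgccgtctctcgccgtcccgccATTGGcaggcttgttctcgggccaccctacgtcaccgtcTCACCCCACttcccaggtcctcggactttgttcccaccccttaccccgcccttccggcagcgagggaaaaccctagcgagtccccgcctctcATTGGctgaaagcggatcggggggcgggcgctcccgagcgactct
Lss: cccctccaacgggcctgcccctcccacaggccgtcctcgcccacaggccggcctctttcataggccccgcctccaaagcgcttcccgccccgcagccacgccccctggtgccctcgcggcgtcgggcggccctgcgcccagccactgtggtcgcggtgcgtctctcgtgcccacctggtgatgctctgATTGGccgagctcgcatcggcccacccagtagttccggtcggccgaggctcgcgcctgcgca
Mvd: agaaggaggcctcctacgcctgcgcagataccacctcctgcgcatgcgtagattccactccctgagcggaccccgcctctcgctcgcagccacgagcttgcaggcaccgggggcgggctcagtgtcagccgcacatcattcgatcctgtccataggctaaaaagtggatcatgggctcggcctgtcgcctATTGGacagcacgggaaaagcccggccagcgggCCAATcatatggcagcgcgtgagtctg
Insig1: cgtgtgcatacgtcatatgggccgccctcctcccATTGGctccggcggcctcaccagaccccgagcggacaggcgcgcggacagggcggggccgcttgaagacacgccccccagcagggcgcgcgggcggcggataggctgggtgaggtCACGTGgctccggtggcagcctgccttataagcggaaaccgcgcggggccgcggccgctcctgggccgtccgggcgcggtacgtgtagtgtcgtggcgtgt
Hmgcs1 alone of these holds the sterol regulatory core, 137 to 129 bases before its start, and Insig1 alone holds an E-box. RefSeq windows of 300 bases (250 before the start and 50 after it) were matched for 25 of the 30 genes, and not for Fdps, Fdft1, Sqle, Stard4 and Npc1. A CCAAT box on either strand was found for 21 of the 25 (84.0%) beside 41.1% of all 27025 genes with a window. Counted per window, since some genes have several, it was 22 of 35 (62.9%) beside 37.4% of all windows. The sterol regulatory core was found for 1 of the 25 (4%) beside 1.44% of all genes, and the E-box for 6 (24%; Hsd17b7, Abca1, Insig1, Dhcr7, Sc5d and Scap) beside 8.09%. The backgrounds cover all genes with a window, including genes not tested here, whereas all 30 members were tested. Shares over the tested genes alone were not computed. The motifs found are matches of letters and not shown to be bound.

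Within single cells, the mean of log2(CPM + 1) over the 30 genes was 2.68 and 2.72 in Ncmap-positive cells of plates 1 and 2, 2.13 and 2.11 in cycling cells and 1.77 and 1.87 in other cells. The difference between Ncmap-positive and other cells was 0.87 ± 0.0443 (SD, n = 2 plates), and it was 1.09 ± 0.092 over the 20 enzymes, beside 0.31 ± 0.0559 over all 13292 genes. A pseudocount of 10 CPM in place of 1 lowered 0.87 to 0.45. By step, the difference was 1.18 ± 0.0155 for the mevalonate and prenyl genes, 1.04 ± 0.231 for squalene and lanosterol, 1.02 ± 0.114 for the sterol conversions, 0.62 ± 0.0759 for regulation and 0.27 ± 0.178 for uptake and transport. Cells of a class varied widely, and the score of single cells overlapped between all classes. In thinned cells, 19 of the 20 enzymes were found in a larger share of Ncmap-positive than of other cells on both plates, beside 51.0% of all genes. The median number of the 20 enzymes detected per thinned cell was 6 and 5 in Ncmap-positive cells, 4 and 4 in cycling cells, and 3 and 3 in other cells.

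**Figure D3:**
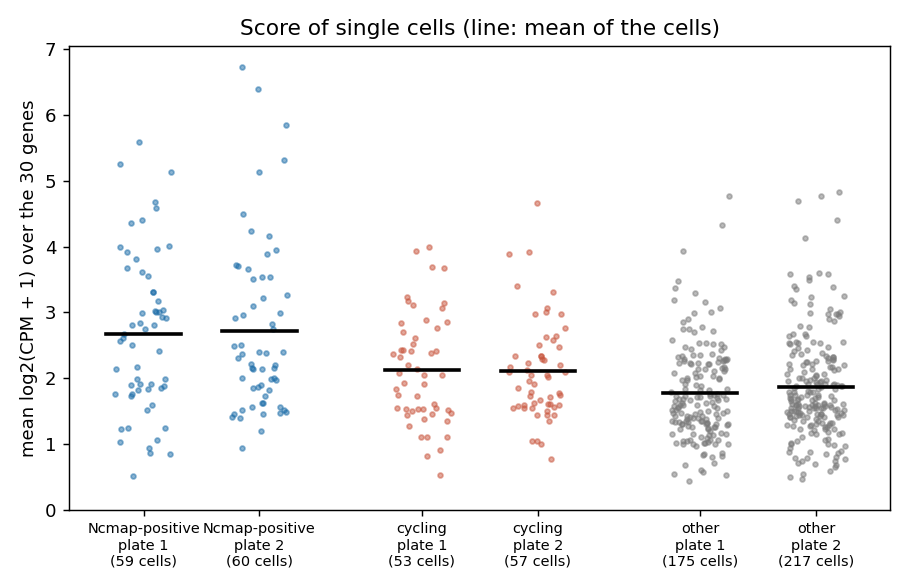
Mean log2(CPM + 1) over the 30 genes in each cell (vertical axis) by class and plate; each point is 1 cell and the black line is the mean of the cells. The means are 2.68 and 2.72 in Ncmap-positive cells, 2.13 and 2.11 in cycling cells and 1.77 and 1.87 in other cells, and single cells of all classes overlap.

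Between cycling and other cells no member passed the test by edgeR, 0 of 30 in either direction, beside 1.01% of all genes in either direction, 0.895% higher and 0.113% lower. At an unadjusted p under 0.05 there were 2 members (background 10.1%), DESeq2 called 0 (background 5.99%), and limma on means over cells called 1, Lbr (background 5.59%). This comparison shares the other cells with the one above. The median log2 fold change was -0.04 over the members and 0.06 over the enzymes, beside -0.07 over all genes, and its sign changed with the setting, from -0.38 over the members in cells low in the dissociation genes to 0.25 by limma. Both plates of cycling cells lay above both plates of other cells for 3 members (Lbr, Sc5d and Dhcr7; background 14.9%) and below them for 9 (Hmgcs1, Tm7sf2, Hsd17b7, Insig2, Srebf2, Scap, Abca1, Npc1 and Npc2; background 28.7%).

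Lbr, a sterol reductase that is also a lamin receptor of the inner nuclear membrane, was at 60.9 and 79.4 CPM in cycling cells and 10.2 and 31.7 CPM in other cells. Its count is uncertain, since it overlaps Dnah14 on the opposite strand. Its log2 fold change was 1.88 (SE 0.645, adjusted p = 0.357), and it had a read in 53.8% and 42.1% of thinned cycling cells against 9.14% and 18.1% of thinned other cells. Sc5d was at 30.3 and 30.4 CPM in cycling cells, and Dhcr7 at 9.88 and 5.92 CPM. Lower levels were found for Abca1, at 3.56 and 9.25 CPM against 23.9 and 31.0 CPM (log2 fold change -1.98, SE 0.842, adjusted p = 0.490), and for Scap, at 24.1 and 9.41 CPM against 61.5 and 40.0 CPM (log2 fold change -1.46, SE 0.652, adjusted p = 0.503). Hsd17b7 had 522 reads (11 CPM) in cycling cells of plate 1 and 0 reads on plate 2. There 3 reads would be 0.0666 CPM, which is not an upper limit, since Hsd17b7 reads lay in few cells. Its fitted log2 fold change of -1.90 (SE 1.73, adjusted p = 0.802) depends on so few cells that 3 of them held 94.6% of its reads in the cycling class. Apoe was at 3348 and 3866 CPM in cycling cells, within the range of other cells. The score difference between cycling and other cells was 0.30 ± 0.0852, beside 0.27 ± 0.0321 over all genes, and a pseudocount of 10 CPM lowered it to 0.13.

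Between Ncmap-positive and cycling cells 3 of 30 members passed by edgeR (10%, background 5.95%), while DESeq2 called 9 (background 17.4%) and limma on means over cells called 12 (background 18.9%). At an unadjusted p under 0.05 there were 11 (background 20.1%). Hmgcs1 and Fdft1 rose in Ncmap-positive cells (2 of 30, background 2.12%) and Apoe fell (1 of 30, background 3.83%). Hmgcs1 was at 182 and 132 CPM in Ncmap-positive cells and 25.9 and 31.4 CPM in cycling cells, a log2 fold change of 2.40 (SE 0.385, adjusted p = 0.0087). Fdft1 was at 135 and 145 CPM against 38.5 and 34.9 CPM, a log2 fold change of 1.88 (SE 0.388, adjusted p = 0.0272). Apoe was at 1440 and 1713 CPM against 3348 and 3866 CPM, a log2 fold change of -1.25 (SE 0.169, adjusted p = 0.0039). The classes did not overlap for any of the 3. In cells low in the dissociation genes Apoe alone was called, while the log2 fold changes of Hmgcs1 and Fdft1 were 1.99 (adjusted p = 0.121) and 1.94 (adjusted p = 0.143). Fdft1 also lost its call at a class threshold of 20 CPM, with a log2 fold change of 1.42 (adjusted p = 0.143).

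The rest of the list followed the same order of classes in part. Both plates of Ncmap-positive cells lay above both plates of cycling cells for 15 members, 11 of them enzymes (background 24.6%), and below them for Ggps1, Lbr, Sc5d and Apoe (background 23.1%). The median log2 fold change was 0.68 over the members and 0.84 over the enzymes, beside -0.02 over all genes, and over the members it was 0.42 without plate 1 and 1.16 without plate 2. Lbr was at 11.6 and 16.9 CPM in Ncmap-positive cells against 60.9 and 79.4 CPM in cycling cells (log2 fold change -2.35, SE 0.656, adjusted p = 0.084). Npc1 was at 105 and 117 CPM against 48.1 and 28.3 CPM (adjusted p = 0.082), and Insig1 at 53.9 and 65.5 CPM against 18.9 and 13.9 CPM (adjusted p = 0.101). Lss and Hsd17b7 had log2 fold changes of 2.37 (SE 1.53, adjusted p = 0.422) and 3.18 (SE 1.81, adjusted p = 0.366), but 3 cells held 99.7% of the Lss reads of cycling cells, and Lss was at 8.58 CPM in Ncmap-positive and 8.45 CPM in cycling cells of plate 2. The score difference was 0.58 ± 0.0409, beside 0.04 ± 0.0238 over all genes, and a pseudocount of 10 CPM lowered it to 0.32.

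**Figure D4:**
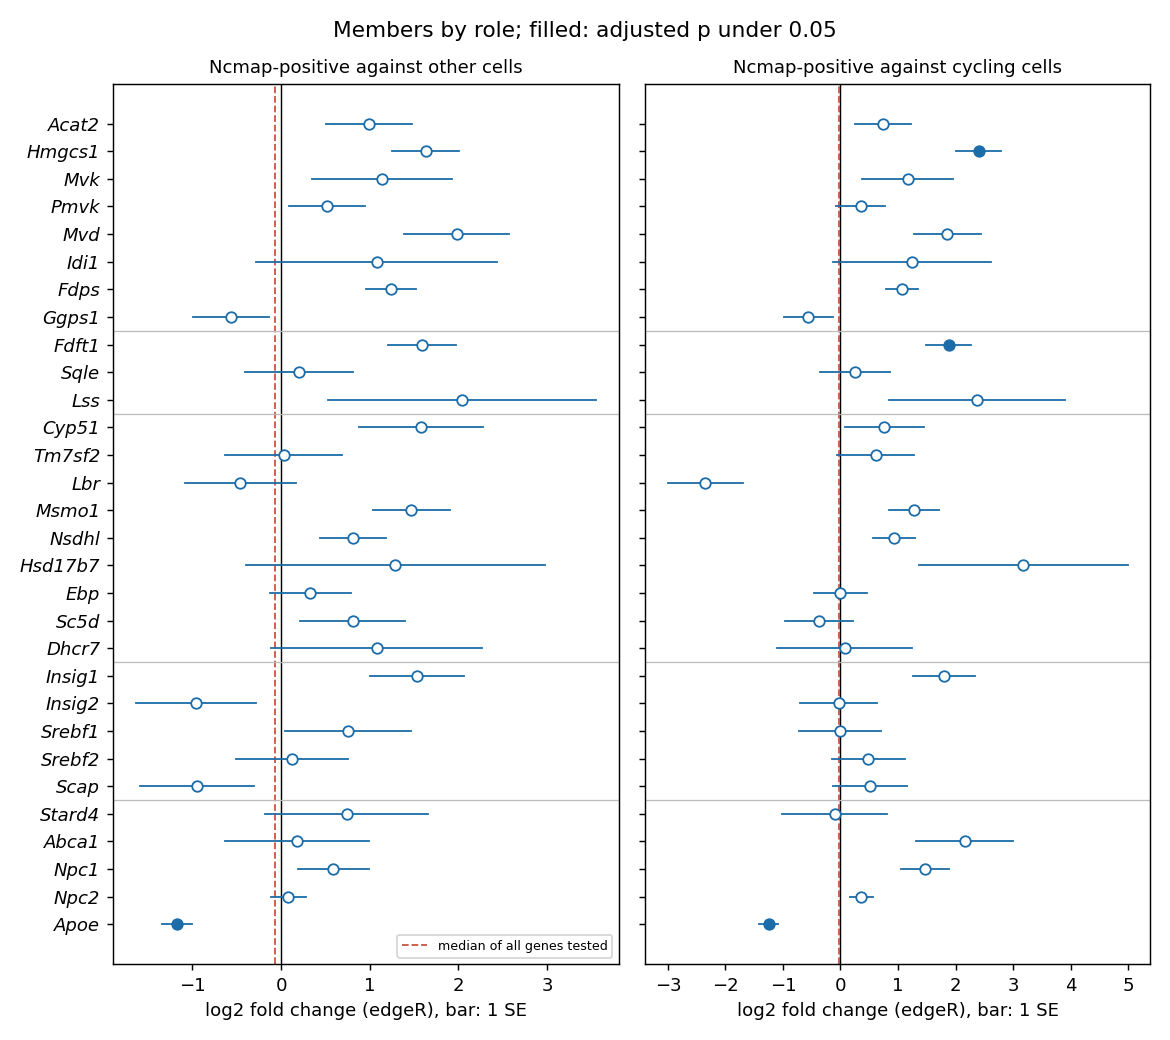
Log2 fold change of the 30 genes by edgeR (horizontal axis, bars 1 SE) for Ncmap-positive against other cells (left) and against cycling cells (right), in pathway order with grey lines between the 5 roles; filled points have an adjusted p under 0.05 and the dashed line is the median of all genes tested. On the left only Apoe is filled (-1.17), and on the right Hmgcs1 (2.40), Fdft1 (1.88) and Apoe (-1.25) are.

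Of a further list of 36 pathway genes, 32 were tested. They gave 0 calls for Ncmap-positive against other cells (background 1.79%) and 0 for cycling against other cells (background 1.01%). For Ncmap-positive against cycling cells there was 1 call (3.12%), below the background of 5.95%. The 1 was Stard5, a sterol-binding START protein, at 277 and 360 CPM in Ncmap-positive cells, 81.3 and 35.2 CPM in cycling cells and 92.3 and 156 CPM in other cells. Its log2 fold change against cycling cells was 2.38 (SE 0.456, adjusted p = 0.0203), and against other cells 1.44 (adjusted p = 0.215). Cyb5a, a cytochrome that donates electrons to sterol desaturases and one of the genes of this list with the highest levels, was at 493 and 382 CPM in Ncmap-positive cells, 367 and 400 CPM in cycling cells and 544 and 410 CPM in other cells. The median log2 fold change of the 32 was 0.15 for Ncmap-positive against other cells.

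Counting could blur some of these levels, since strand use is not stated. Fdft1 overlaps Ctsb on the opposite strand over 18.3% of its exon length, and both had equal reads in 2 of the 428 cells with a read of either. Lbr overlaps Dnah14 on the opposite strand over 9.24% of its exon length, with equal reads in 22 of 175 such cells. Both genes had a read in 155 of these 175 cells, so the count of Lbr is uncertain. Ggps1 overlaps Arid4b, with equal reads in 5 of 379 cells. Tm7sf2 overlaps Vps51 on the same strand over 12.1% of its length, with equal reads in 5 of 484 cells.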

How the data were processed

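Single SCs of 1 group (P1) were sequenced with the Smart-seq2 protocol, which reads whole transcripts without molecular identifiers. The deposited values were raw read counts for each gene in each cell, which the authors made by mapping with STAR and counting with featureCounts (the labels' processing notes name STAR 2.6.1c, bcl2fastq and the build GRCm38.p5). The methods name a human assembly, while all gene IDs used here are mouse IDs. Strand use in counting is not given in the sources used here.

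Symbols came from GENCODE M21 (25587 of 25700 IDs matched). The 30 members and all lists were chosen with earlier results of these data known. Cells with at least 1500 detected genes were kept, with 26673 to 2291613 reads each, and no doublet caller was run on the sorted wells. Raw counts were summed per plate and class (6 sums) and fitted together by edgeR 4.0.16 in R 4.3.3 (TMM, low counts filtered, quasi-likelihood test), with Benjamini-Hochberg adjustment over 13292 genes and calls at an adjusted p under 0.05. Full statistics were given for members called and for the 4 with the largest fold change of each comparison, and other genes were named from fixed lists, of which some are not reported here. Scores were means of log2(CPM + 1) per cell, with no test. In thinning to 50000 reads, 5 cells with fewer were left out. The script was tested on simulated data. The value given for 3 reads covers counting error only. The SEs by edgeR and the SDs over plates also hold the spread between plates. DESeq2 1.42.0 and limma 3.58.1 were alternatives, with others on filters, thresholds and scaling and, added after seeing the data, cells low in dissociation genes.

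The sums of one plate came from the same mice, and their deviations from the class means correlated at r = 0.106, 0.152 and 0.204 over 3705 genes for the 3 pairs of classes.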

Additional observations from a re-analysis of the deposited data

Results flagged for a closer look

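Reads of the 30 genes were also found in the 122 wells set aside for fewer than 1500 detected genes. They came to 56319 reads in the 83 such wells of plate 1 and 21092 reads in the 39 of plate 2. Scaled to all reads of these wells, the level was 3345 CPM on plate 1 and 5118 CPM on plate 2, beside 4720 and 5613 CPM in the cells used. Apoe alone came to 1422 and 2357 CPM in the wells set aside and to 2917 and 3687 CPM in the cells used. The other 29 genes lay the other way, at 1923 and 2761 CPM in the wells set aside and 1803 and 1926 CPM in the cells used.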

How the results depend on the processing

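The number of members called for Ncmap-positive against other cells was 1, and it was 5 with no filter on low counts, 7 by DESeq2, 12 by limma on means over cells, 3 in thinned cells, 3 in cells of at least 2500 genes, 2 at a class threshold of 100 CPM and 0 in cells low in the dissociation genes. For cycling against other cells it was 0, and 1 by limma. For Ncmap-positive against cycling cells it was 3, and 7 with no filter, 9 by DESeq2, 12 by limma, 7 in thinned cells, 7 at a threshold of 100 CPM, 4 in cells of at least 1000 and 4 in cells of at least 2500 genes, 2 at a threshold of 20 CPM (without Fdft1) and 1 in cells low in the dissociation genes. The last setting used fewer cells by its construction, and for the others the cause was not tested. With plate as a replicate block, the counts were 1, 0 and 3, with the same members called, so the block changed no call. Counts could not be recomputed with 1 plate, since no replicate is then left.

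Over all genes, 238, 134 and 791 were called in these 3 comparisons, and 1012, 796 and 2312 by DESeq2, 1201, 743 and 2510 by limma, 521, 317 and 1290 with no filter and 56, 68 and 313 in cells low in the dissociation genes; thinned cells gave 393, 252 and 1131. Calls in the upward direction made up 27.7%, 88.8% and 35.7% of these, against 33.5%, 56.5% and 43.6% by DESeq2 and 82.3%, 97.8% and 51.8% by limma, where the median of all genes lay at 0.154 for the first comparison.

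The score difference of 0.87 between Ncmap-positive and other cells became 0.83 in thinned cells, 0.78 in cells of at least 2500 genes, 0.83 at a threshold of 20 CPM, 0.45 with a pseudocount of 10 CPM and 0.97 in cells low in the dissociation genes. That of 0.30 between cycling and other cells became 0.13 with the larger pseudocount. That of 0.58 between Ncmap-positive and cycling cells became 0.51 in cells of at least 2500 genes, 0.62 at a threshold of 100 CPM, 0.32 with the larger pseudocount and 0.69 in cells low in the dissociation genes. The score differences kept their direction under all of these. The median log2 fold change of the members ranged from 0.55 (without plate 1) to 0.86 for Ncmap-positive against other cells and from 0.42 (without plate 1) to 1.16 (without plate 2) against cycling cells. For cycling against other cells it took both signs, with -0.04 becoming 0.25 by limma, 0.06 in cells of at least 2500 genes, -0.26 at 100 CPM, -0.33 without plate 2 and -0.38 in cells low in the dissociation genes. Of the values for single genes, 178 kept their call or stayed within the spread, 18 gained a call, 4 lost one and 8 moved by more than the spread.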
